A study of Mus musculus with 2 samples.

Results

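Endothelial miR-126a and the erythroid miRNAs miR-451a, miR-144-3p and miR-486a-5p were examined in liver RNA as a measure of vessel and blood content. The members were chosen by their miRBase mature accessions. The rule itself uses no values, but it was written with earlier results of these data known. They were MIMAT0000138 (miR-126a-3p), MIMAT0000137 (miR-126a-5p), MIMAT0001632 (miR-451a), MIMAT0000156 (miR-144-3p) and MIMAT0003130 (miR-486a-5p). These are 5 of the 610 features in the deposited table, each with 1 feature of its own, and all 5 had a value on both arrays. The liver-specific Hnf4a-null group (Hnf4aΔH) and the floxed controls (Hnf4af/f) were both 45-day-old males of mixed 129SV + C57BL/6 background, with 1 liver array each. The floxed Hnf4a allele is named by the label of the controls. Neither the Cre driver nor the number of animals behind an array is stated in the labels. The array measures miRNAs only, so the loss of Hnf4a could not be checked.

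Endothelial cells are the main source of miR-126, whose hairpin lies in Egfl7, a gene of the same cells. It gives 2 mature strands, of which the 3p strand is the guide usually studied for its part in the endothelial response to VEGF and in vessel integrity. Red cells and their precursors carry miR-451a and miR-144, which are cut from 1 shared transcript under the control of GATA1. The maturation of miR-451a is unusual in that it is done by Ago2 and bypasses Dicer. Erythroid cells are also rich in miR-486, which is encoded within Ank1, the gene of erythroid ankyrin, and which muscle expresses too. Whole liver RNA holds that of sinusoidal endothelium and of residual blood, and platelets are a further known source of miR-126.

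Mature sequences from RefSeq (GRCm38.p6) were at hand for 3 of the 5 members, and they are shown because a change in an array signal refers to these strands. The capitals mark the seed, bases 2 to 8 from the 5′ end, by which a miRNA pairs with its targets.
miR-126a-3p: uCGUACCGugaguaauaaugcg
miR-451a: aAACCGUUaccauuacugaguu
miR-144-3p: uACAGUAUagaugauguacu
The strand of miR-126a-3p lies at chr2:26591402-26591423 on the plus strand, within the span of Egfl7. On the minus strand, 19 of these positions are also covered by miR-126b-5p. The strand of miR-451a lies at chr11:78073186-78073207 and that of miR-144-3p at chr11:78073047-78073066, both on the plus strand, and 99 bases separate their hairpins. Neither lies within the span of a protein-coding gene in the annotation used. The gene of miR-486a lies within the span of Ank1 on chromosome 8. Whether these positions are exonic or intronic is not given by the tables used here. The span of the miR-486a gene also holds the gene Mir3107. Without the sequence of miR-486a-5p, whether its signal is shared with another miRNA could not be checked.

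The 3 seeds differ from each other, and no other mature mouse miRNA among the 1679 names of the sequence table has one of them (0 for each). On the shorter stretch from base 2 to base 7, miR-144-3p shares its letters with 1 other miRNA, miR-101a-3p. The same stretch of miR-126a-3p and of miR-451a was found in 0 others. The mature strands also differ in composition. Of their bases, 10 of 22 were G or C in miR-126a-3p, 8 of 22 in miR-451a and 6 of 20 in miR-144-3p. Base composition affects how strongly a probe binds. Ranks, quartiles and shares of the total intensity below therefore describe how bright a signal was on its array, not the amount of a miRNA, and a miRNA's level is compared only with its own on the other array.

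Intensities below are the authors' processed values on a linear scale, and differences are log2(intensity + 1) in Hnf4aΔH liver minus that in Hnf4af/f liver. With 1 array per genotype there is no replicate error, no test was made, and precision is limited by the number of arrays. The median log2 level over the 258 features measured in both livers (the shared features) was 2.85 on the Hnf4aΔH array and 2.70 on the Hnf4af/f array. This shift of 0.15 is taken off where a difference is given relative to it. The median of the 258 differences themselves was -0.06, opposite in sign to the shift of the medians. Each difference was computed under 7 settings, namely the values as deposited, quantile normalization, a loess fit against brightness subtracted from the difference, no pseudocount, a pseudocount of 16, and arrays centred by their median or by their 75th percentile. In these bulk samples, a change in the number of endothelial or red cells and a change in the miRNA each cell holds cannot be told apart.

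None of the 5 vessel and red cell miRNAs differed by as much as 2-fold between the livers (0 higher and 0 lower in Hnf4aΔH). Over the 258 shared features, 6.59% were at least 2-fold higher in Hnf4aΔH and 5.43% at least 2-fold lower, or 12% in both directions together. These are 17 higher and 14 lower features, a balance that turned to 9 higher and 20 lower when arrays were median centred, 10 and 15 after loess centring, 2 and 7 with a pseudocount of 16 and 19 and 24 with no pseudocount. With background shares this small, a count of 0 among 5 members is near the background and is not a result about them. At 1.5-fold the members' counts were again 0 and 0, where 15.1% of the shared features were higher and 14.7% lower, or 29.8% in all. The members' differences ran from -0.28 to 0.26 with a median of 0.05. Over the shared features they ran from -3.16 to 2.46 with a median of -0.06.

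**Figure D1:**
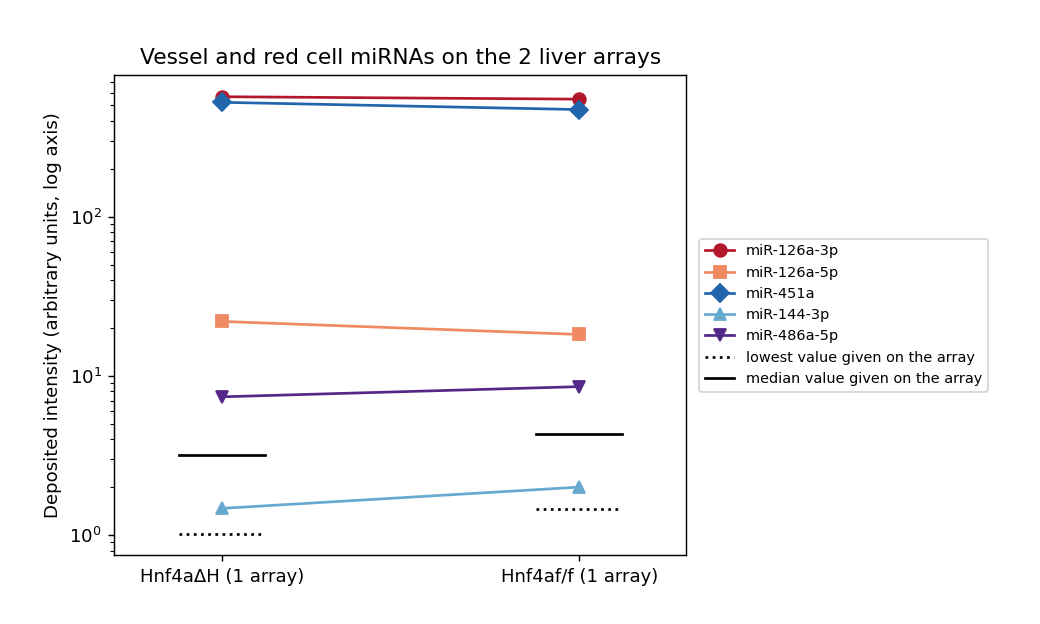
Deposited intensity of the 5 miRNAs (log axis, arbitrary units) on the 1 Hnf4aΔH and the 1 Hnf4af/f liver array, with a line joining the 2 values of a miRNA. Short solid and dotted lines mark the median and the lowest value given on each array; miR-126a-3p and miR-451a lie far above the median on both, and miR-144-3p lies just above the lowest value.

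The endothelial guide strand miR-126a-3p had an intensity of 567 in Hnf4aΔH liver and 547 in Hnf4af/f liver. The Hnf4aΔH signal was 1.04 times that of Hnf4af/f, a log2 difference of 0.05. This turned to -0.10 relative to the shift of 0.15, and was 0.07 with arrays centred by their 75th percentile. The signal of miR-126a-3p was among the bright ones of both livers, ranking 11 in Hnf4aΔH and 12 in Hnf4af/f. It held 2.0% of the total intensity in Hnf4aΔH and 1.90% in Hnf4af/f. Of the 258 shared features, 17 had a difference nearer to 0 than miR-126a-3p. Among the 125 other features with a mean log2 level at or above the median (the brighter features), 16 (12.8%) had a difference within 0.1 of it. The signal of the endothelial guide strand differed little between these 2 arrays. The 16 features were picked for being close to it, so their likeness follows from that choice.

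The partner strand miR-126a-5p, from the other arm of the same hairpin, gave a signal in the second brightest quartile of the shared features. Its intensity was 22.0 in Hnf4aΔH liver and 18.2 in Hnf4af/f liver. The Hnf4aΔH signal was 1.21 times that of Hnf4af/f, a log2 difference of 0.26. Relative to the shift this came to 0.11. The difference of the 5p strand was 0.21 above that of the 3p strand, a gap that centring an array cannot change. The gap was 0.01 with loess centring, which takes out a trend with brightness, and 0.07 with quantile normalization. Both endothelial strands therefore stood within 1.5-fold. The 5p strand was higher in Hnf4aΔH under all 7 settings and the 3p strand in all but median centring. A change of pseudocount alone could not have turned either sign.

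The erythroid miR-451a belonged to the brightest quartile of features. Its intensity was 523 in Hnf4aΔH liver and 471 in Hnf4af/f liver, with a ratio of 1.11. The log2 difference was 0.15, the same size as the shift of the medians, so that it came to -0.0015 relative to that shift. Under all settings but median centring it lay between 0.10 and 0.17, the highest being with centring by the 75th percentile. The signal of miR-451a ranked 13 in Hnf4aΔH and 14 in Hnf4af/f, and held 1.84% of the total intensity in Hnf4aΔH and 1.63% in Hnf4af/f. As for miR-126a-3p, 16 of the 125 other brighter features had a difference within 0.1 of that of miR-451a. The difference of miR-451a was 0.10 above that of miR-126a-3p. Centring by the median or the 75th percentile cannot change this gap, and a pseudocount hardly moves signals this bright. The gap was 0.06 with quantile normalization and 0.10 with loess centring. Whether this gap exceeds the variation between livers could not be tested.

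The cluster partner miR-144-3p was close to the lower end of both arrays. Its intensity was 1.47 in Hnf4aΔH liver and 2.001 in Hnf4af/f liver, a ratio of 0.74. The lowest value given was 1.02 on the Hnf4aΔH array and 1.45 on the Hnf4af/f array, so miR-144-3p stood at 1.44 times that value in Hnf4aΔH and 1.38 times that value in Hnf4af/f. Its log2 difference was -0.28, and -0.43 once the shift was taken off. It was -0.05 with loess centring and -0.04 with a pseudocount of 16. The dimmest quartile of the shared features, to which it belongs, had a median difference of -0.23, with its 25th and 75th percentiles at -0.36 and -0.03. The value of miR-144-3p lay between these percentiles. Its difference was 0.43 below that of miR-451a from the same transcript, a gap of 0.17 with loess centring.

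The third erythroid miRNA, miR-486a-5p, was also in the second brightest quartile. Its intensity was 7.39 in Hnf4aΔH liver and 8.56 in Hnf4af/f liver, with a ratio of 0.86. It stood at 2.31 times the median value in Hnf4aΔH and 1.98 times that in Hnf4af/f. Its log2 difference was -0.19, and -0.34 once the shift was taken off. With loess centring it was -0.40 and with quantile normalization -0.39, the lowest values of the 5 members in these settings. It was lower in Hnf4aΔH under all 7 settings and within 1.5-fold in each of them. The settings that change only the pseudocount could not have turned this sign. No common direction of the erythroid miRNAs can be given. Under all settings but median centring, miR-451a was higher in Hnf4aΔH while miR-144-3p and miR-486a-5p were lower. With median centring all of them were lower, miR-451a only by -0.0015. The signal of miR-144-3p also lay near the lowest value of each array. Without replicate arrays, none of these differences can be told from the spread between livers.

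**Figure D2:**
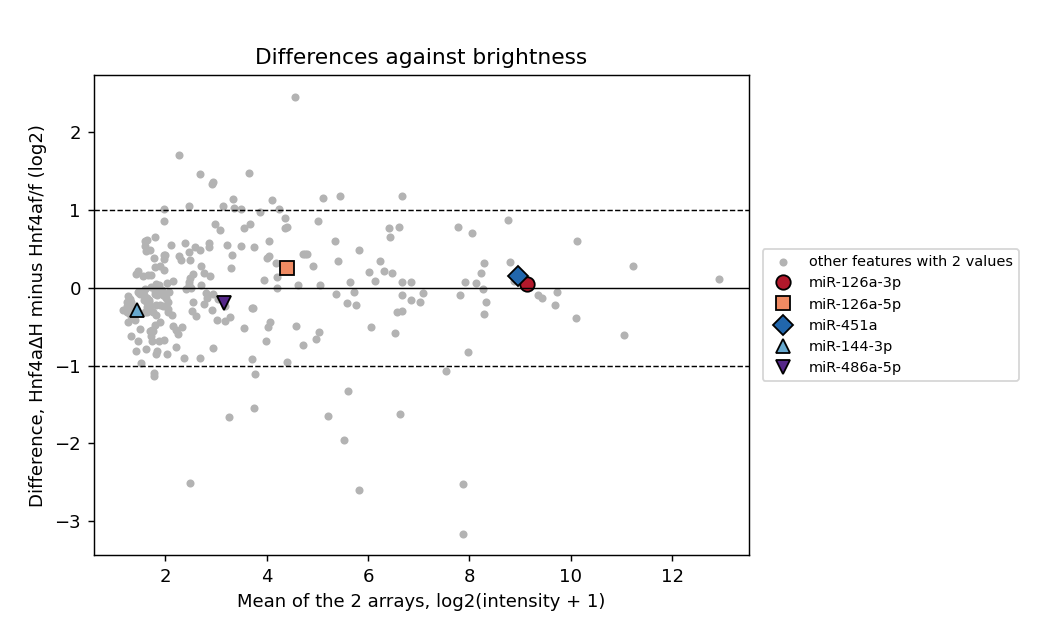
Log2 difference (Hnf4aΔH minus Hnf4af/f) against the mean log2(intensity + 1) of the 2 arrays, for the 258 shared features, with the 5 miRNAs as large coloured symbols. Dashed lines mark 2-fold; the 5 miRNAs lie between -0.28 and 0.26, inside the spread of grey points of the same brightness.

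The brightness of a member sets what its difference can be read against. In the brightest quartile (65 features), which holds miR-126a-3p and miR-451a, the median difference was 0.04, the 25th and 75th percentiles were -0.30 and 0.28, and 67.7% of features lay within 1.5-fold. In the next quartile (64 features), which holds miR-126a-5p and miR-486a-5p, the median was 0.30 and these percentiles were -0.30 and 0.78. All 5 members lay between the 25th and 75th percentiles of their own quartile.

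The 5 members together held 3.95% of the total intensity in Hnf4aΔH liver and 3.63% in Hnf4af/f liver. Whether the livers were perfused is not stated in the labels.

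**Figure D3:**
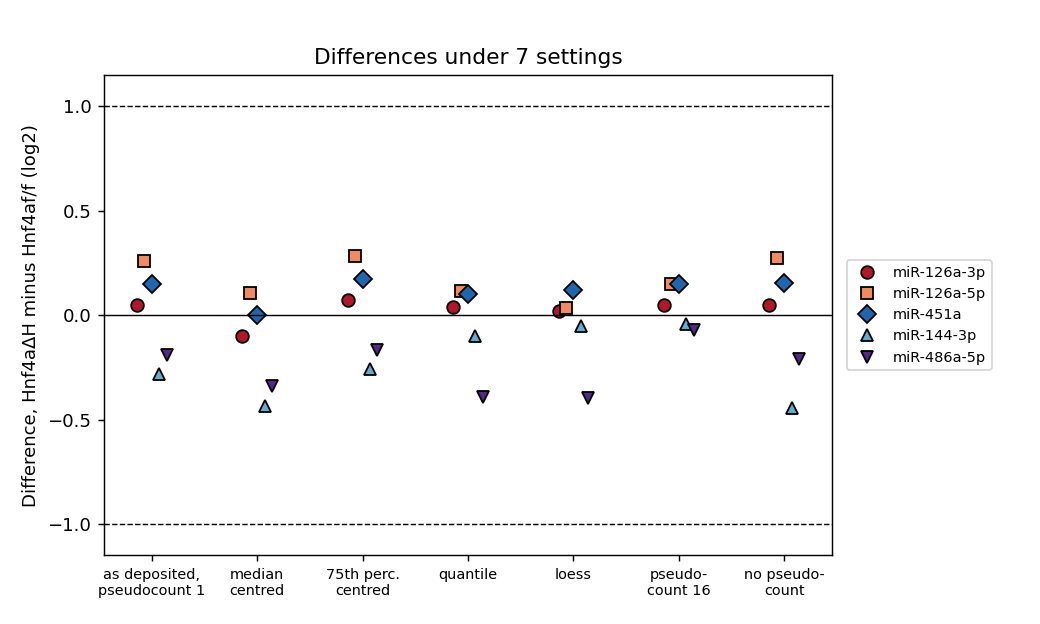
Log2 difference (Hnf4aΔH minus Hnf4af/f) of the 5 miRNAs under 7 ways of scaling the arrays or adding a pseudocount, 1 symbol per miRNA and setting. Dashed lines mark 2-fold; every value lies between -0.44 and 0.28, and only miR-126a-3p and miR-451a change sign, both with median centring.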

How the data were processed

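Per the labels' protocols, liver RNA was purified with a column kit that keeps small RNA and labelled with Hy5, with 1 channel per array. The authors deposited 1 table of processed, linear intensity values. The labels do not state how they corrected background, treated dim spots or normalized. A value was given for 340 features on the Hnf4aΔH array and 299 on the Hnf4af/f array, and missing values were not replaced. Differences of log2(intensity + 1) were taken over the 258 features with both values. Brighter features (129) are those at or above the median mean level. Names of the members came with their selection. The files pair no accession with a name, so the 6 marker lists and the rule for the most similar miRNAs could not be applied. Members and lists were chosen with earlier results of these data known. Alternatives were median, 75th percentile, quantile and loess (span 0.4) scaling, a pseudocount of 16 or none, a 1.5-fold threshold and brighter features alone. Python 3.11.15, numpy 2.4.6, pandas 2.3.3, statsmodels 0.14.6 and matplotlib 3.10.9 were used.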

Additional observations from a re-analysis of the deposited data

How the results depend on the processing

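No paired analysis was possible because there is 1 array for Hnf4aΔH and 1 for Hnf4af/f. Leaving out a replicate was likewise impossible. Of the 30 member values recomputed under 6 alternatives, 28 kept their sign and 0 reached 2-fold. The furthest from 0 was -0.44 for miR-144-3p with no pseudocount. A change of pseudocount cannot turn a sign, and a pseudocount of 16 can only bring a difference nearer to 0. The sign could therefore turn only under the centring, quantile and loess settings. With median centring, miR-126a-3p turned to -0.10 and miR-451a to -0.0015, and the median of the 5 members turned to -0.10. The members' counts at 2-fold stayed at 0 in both directions under all alternatives run. Over all shared features, the counts at 2-fold were 17 higher in Hnf4aΔH and 14 lower. Median centring gave 9 higher and 20 lower, loess centring 10 and 15, quantile normalization 15 and 15, and a pseudocount of 16 gave 2 and 7. With no pseudocount there were 19 higher and 24 lower, and at 1.5-fold 39 and 38. Which direction held more features therefore depended on the setting. A pseudocount moves dim features most by its construction, and a lower threshold can only raise a count. Median centring takes the same 0.15 off every difference, so it cannot raise the count of higher features or reduce that of lower ones. The cause of the remaining changes was not tested. The settings for marker lists were not run, since names could not be matched. How far a dim signal such as miR-144-3p stood above background is not known, because no background values were used here.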
